A study of Mus musculus with 4 samples.

Results

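The RGS (regulator of G protein signalling) genes described here are 8 mouse genes, Rgs2, Rgs3, Rgs4, Rgs5, Rgs10, Rgs16, Rgs17 and Rgs19, chosen by name from 18194 genes with a named probe set. Every probe set paired with 1 of them alone was taken, which gave 23 probe sets, each read in all 4 arrays. Mouse embryonic fibroblasts, a primary culture of connective tissue cells made from whole embryos, came from FAK -/- (knockout) and FAK +/+ (wild type) mice. FAK, focal adhesion kinase, relays integrin signals where cells attach to matrix. The 4 groups were knockout cells with endothelin-1 (ET-1), wild-type cells with ET-1, untreated knockout cells and untreated wild-type cells, with 1 Affymetrix Mouse Genome 430 2.0 array each. All cells were at passage 5, had been grown in 10% serum, and were starved of serum for 24 h before a further 24 h with or without ET-1. The labels do not say how many embryos or lines of either genotype were used, so a difference between lines and loss of FAK cannot be told apart. Values of the gene that encodes FAK are not analysed here, so the genotype labels were not checked against it.

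When a receptor such as those for ET-1 activates a heterotrimeric G protein, the alpha subunit stays active until it hydrolyses its GTP. RGS proteins bind the active alpha subunit and speed that hydrolysis, so they shorten the signal. The R4 subfamily (here Rgs2, Rgs3, Rgs4, Rgs5 and Rgs16) acts on Gi or Gq alpha subunits, Rgs2 with a preference for Gq. Rgs10 belongs to the R12 subfamily and acts on Gi, and Rgs17 and Rgs19 belong to the RZ subfamily, which acts on Gi and Gz. Several RGS genes are induced by the signals they limit.

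The promoters of Rgs17, Rgs4 and Rgs2 are shown because these 3 genes lay below wild type in both knockout arrays. Each line gives the 250 bases before the transcription start of the RefSeq table, build GRCm38.p6, 5' to 3' on the gene's own strand. Rgs17 lies at chr10:5922401-5922650, Rgs4 at chr1:169747643-169747892 and Rgs2 at chr1:144004150-144004399, all on the minus strand. Capitals mark the AP-1 motif TGANTCA, the core TGACG of the cAMP response element (CRE), the TATA box TATAAA and the CCAAT box CCAAT, on either strand.
Rgs17: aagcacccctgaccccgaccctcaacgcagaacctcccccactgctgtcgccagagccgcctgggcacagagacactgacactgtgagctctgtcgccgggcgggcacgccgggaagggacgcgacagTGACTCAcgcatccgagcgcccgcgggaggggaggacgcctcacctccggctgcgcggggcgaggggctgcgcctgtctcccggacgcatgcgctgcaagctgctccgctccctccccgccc
Rgs4: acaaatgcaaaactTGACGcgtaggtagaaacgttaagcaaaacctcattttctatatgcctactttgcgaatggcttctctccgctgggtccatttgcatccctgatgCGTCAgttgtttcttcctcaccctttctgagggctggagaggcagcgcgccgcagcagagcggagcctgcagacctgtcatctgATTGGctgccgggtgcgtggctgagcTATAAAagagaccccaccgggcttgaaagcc
Rgs2: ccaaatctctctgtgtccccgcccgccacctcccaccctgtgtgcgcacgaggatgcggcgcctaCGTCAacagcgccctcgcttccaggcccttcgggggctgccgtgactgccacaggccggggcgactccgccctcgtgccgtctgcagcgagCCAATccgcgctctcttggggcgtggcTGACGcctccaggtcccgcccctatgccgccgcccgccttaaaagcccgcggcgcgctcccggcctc
The Rgs17 window holds 1 AP-1 motif, 122 bases before the start, and 6.75% of 32851 such windows over all genes hold one. The Rgs4 window holds a TATA box 31 bases before the start, which 12.4% of windows hold, and CRE cores 236 and 141 bases before it. The Rgs2 window holds CRE cores 185 and 67 bases before the start and a CCAAT box 94 bases before it. A CRE core is in 17.8% of windows and a CCAAT box, also in the Rgs4, Rgs5 and Rgs16 windows, in 33.8%. The GC box GGGCGG was in at least 1 window of 6 of the 8 genes and in 32.7% of windows. The 8 genes have 11 windows, and a gene with several has more chances to hold a motif than 1 window has. The full CRE TGACGTCA (1.55% of windows), which contains the core, the TEAD motif GGAATG (12.6%) and the CArG box (1.47%) matched no window of the 8 genes. Such matches describe the letters of these windows only.

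The values are log2 RMA values, in which each unit is a doubling. Each gene is represented by its brightest probe set, judged by the 4-array mean, and a gene was tested when that probe set exceeded the median of all values (log2 8.90) in at least 1 array. This left 6 of the 8 genes and 12290 genes in all, and 11 of the 23 probe sets. Rgs5 and Rgs16 stayed below the filter in every array. The ET-1-treated wild-type array stood apart in its Gapdh control transcript. There the 3' end of Gapdh read 3.79 (log2) above the 5' end, against 0.85 to 0.90 in the other arrays. The same gap for Actb was 1.27 and 1.81 in ET-1-treated knockout and wild type and 1.30 and 0.66 in untreated knockout and wild type. The genotype difference in untreated cells and the ET-1 difference in knockout cells do not use the ET-1-treated wild-type array. By Actb the untreated genotype pair also differed, and the part of that in the values was not tested. Averages over treatments or genotypes come from an additive limma model, whose standard error (SE) rests on the genotype by treatment term and not on replicate cultures.

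Loss of FAK went with lower Rgs17, and the values of Rgs2 and Rgs4 were also lower in both knockout arrays than in both wild-type arrays. Rgs10 was higher in both knockout arrays, as were the brightest probe sets of Rgs3 and Rgs19 by smaller amounts. So 3 of the 6 genes tested lay wholly below wild type and 3 wholly above, against 29.3% and 30.0% of all genes tested. The 3 lower genes passed the filter through wild-type arrays alone, which favours that direction, so the count supports nothing. By limma, 1 of the 6 genes differed between genotypes, Rgs17, which fell, against 13.6% of all genes tested in either direction and 7.05% that fell. At 2-fold or more, 1 of the 6 genes (Rgs2) was lower after ET-1, against 6.53% of all genes lower and 12.1% in either direction. In untreated cells 0 of the 6 reached 2-fold, against 9.37% of all genes. Of the 11 probe sets above the filter, 2 were 2-fold or more lower after ET-1 (Rgs2 and Rgs4), against 6.31% of all such probe sets, and 1 in untreated cells (Rgs4), against 4.63%. Nothing about the RGS genes as a group is read from these counts. In such bulk RNA, fewer cells of a type and less RNA per cell cannot be told apart.

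**Figure D1:**
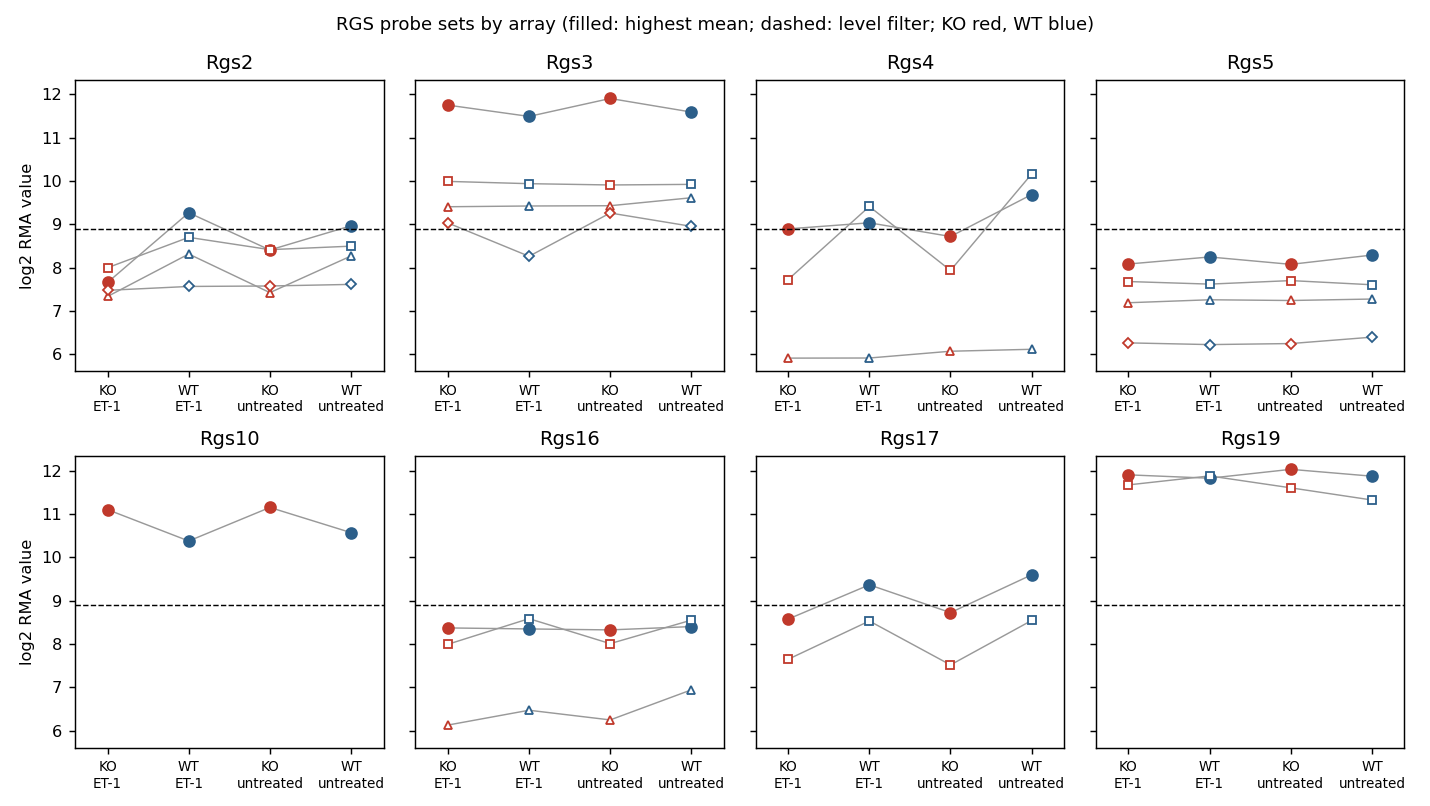
Log2 RMA values (vertical axis) of all 23 RGS probe sets in the 4 arrays, 1 panel per gene, with knockout (KO) in red and wild type (WT) in blue. Filled points are the brightest probe set of a gene, open points the others, grey lines join the values of 1 probe set, and the dashed line is the level filter at 8.90. Rgs17, Rgs2 and Rgs4 have lower filled points in both knockout arrays, Rgs10 has higher ones, and every Rgs5 and Rgs16 point is under the filter.

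Rgs17, also called RGSZ2, inactivates Gi and Gz alpha subunits. Its brighter probe set (1450693_at) read 8.58 in ET-1-treated knockout, 9.37 in ET-1-treated wild type, 8.73 in untreated knockout and 9.60 in untreated wild type. Both knockout values were under the level filter and both wild-type values above it, and the genotypes did not overlap. Rgs17 was therefore tested through its wild-type arrays alone, and the size of its difference is uncertain. The knockout minus wild-type difference was -0.79 after ET-1 and -0.87 in untreated cells, the second without the array that stood apart. Averaged over treatments Rgs17 fell by 0.83 ± 0.09 (SE) on the log2 scale, with an adjusted p of 0.0156 by limma over all genes tested and of 0.0183 with no level filter. Its dimmer probe set (1439779_at) read 7.65 and 8.53 in knockout and wild type after ET-1 and 7.52 and 8.55 in untreated knockout and wild type. That is a difference of -0.88 and -1.03 at a level below the filter in every array, so both probe sets differed in the same direction by similar amounts.

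Rgs19, known as GAIP, was found through its binding to a Gi alpha subunit and is the other RZ gene of the list. Its brighter probe set (1417786_a_at) read 11.91 and 11.83 in ET-1-treated knockout and wild type and 12.03 and 11.88 in untreated knockout and wild type. The genotypes differed by 0.08 after ET-1 and by 0.16 untreated, and the limma estimate was 0.12 ± 0.16 (adjusted p = 0.705). The second probe set (1434940_x_at), of a type that can cross-hybridise to other transcripts, read 11.68 and 11.88 in ET-1-treated knockout and wild type and 11.61 and 11.33 in untreated knockout and wild type. Its difference was -0.21 after ET-1 and 0.28 untreated, so the direction for Rgs19 depended on the probe set and the treatment.

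Rgs2 limits Gq signalling, the route that ET-1 receptors use to raise calcium. Its brightest probe set (1419248_at) read 7.66 in ET-1-treated knockout, 9.27 in ET-1-treated wild type, 8.41 in untreated knockout and 8.97 in untreated wild type. The lowest value was in the ET-1-treated knockout and the highest in the ET-1-treated wild type. The genotype difference was -1.61 after ET-1, which is 3.05-fold lower, and -0.56 in untreated cells, 1.47-fold lower. Of these, only the difference after ET-1 uses the array that stood apart in its Gapdh ends. Both knockout values were under the filter, so these sizes are uncertain. Averaged over treatments it was -1.08 ± 0.28 (SE), which missed the threshold by limma (adjusted p = 0.0905). The 3 dimmer probe sets never passed the filter, and all of them were also below 0 in both treatments. The nearest in size was 1447830_s_at, at -0.98 after ET-1 and -0.85 untreated, then 1419247_at at -0.70 and -0.08, while 1443250_at was at -0.09 and -0.04. The mean over all 4 probe sets was -0.84 after ET-1 and -0.38 untreated, under 2-fold.

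Rgs4 acts on Gi and Gq alpha subunits, and its 2 bright probe sets gave different sizes. The one with the higher mean (1416287_at) read 8.90 and 9.04 in ET-1-treated knockout and wild type and 8.72 and 9.69 in untreated knockout and wild type. Its genotype difference was -0.14 after ET-1 and -0.97 untreated, and limma gave -0.55 ± 0.23 (adjusted p = 0.206). The other (1416286_at) read 7.73 and 9.41 in ET-1-treated knockout and wild type and 7.94 and 10.16 in untreated knockout and wild type. Its difference was -1.69 after ET-1 and -2.23 untreated, which is 3.22-fold and 4.68-fold lower, with both knockout values under the filter. When every probe set was tested as a feature of its own, a fit added after the data were seen, 1416286_at fell by 1.96 ± 0.19 with a limma adjusted p of 0.0253, against 8.45% of 20939 probe sets called. In the same fit 1416287_at had an adjusted p of 0.261 and the Rgs17 probe set 1450693_at one of 0.0401. The third Rgs4 probe set (1448285_at) read 5.91 to 6.12, near the lowest values of the arrays, and differed by -0.0026 after ET-1 and by -0.04 untreated.

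Rgs5, a marker of pericytes and other mural cells, is the chromosomal neighbour of Rgs4 in the RefSeq table. Its 4 probe sets read 6.23 to 8.29, under the filter in all arrays. Their genotype differences ran from -0.16 to 0.06 after ET-1 and from -0.21 to 0.10 untreated. Rgs16, an R4 gene that responds to many stimuli, was also under the filter. Its brightest probe set (1451452_a_at) read 8.37 and 8.35 in ET-1-treated knockout and wild type and 8.33 and 8.40 in untreated knockout and wild type, and its genotypes overlapped. The other Rgs16 probe sets had differences of -0.59 (1455265_a_at) and -0.34 (1426037_a_at) after ET-1 and -0.54 and -0.69 untreated. No test was made for either gene.

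Rgs3 is a long gene with many transcripts, and RefSeq lists 16 for it. Its brightest probe set (1425296_a_at) read 11.75 and 11.49 in ET-1-treated knockout and wild type and 11.91 and 11.59 in untreated knockout and wild type. Both knockout values were the higher ones, by 0.26 and 0.31, and limma gave 0.29 ± 0.16 (adjusted p = 0.326). Probe set 1425701_a_at read 9.03 and 8.26 in ET-1-treated knockout and wild type and 9.26 and 8.96 in untreated knockout and wild type, a difference of 0.77 after ET-1 and 0.31 untreated. The remaining probe sets lay closer to 0, at 0.05 after ET-1 and -0.01 untreated (1449516_a_at) and at -0.02 and -0.18 (1454026_a_at). Which transcripts each probe set reads was not analysed here.

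Rgs10, a small RGS protein selective for Gi alpha subunits and known from immune cells and brain, has a single probe set (1416882_at). It read 11.10 in ET-1-treated knockout, 10.38 in ET-1-treated wild type, 11.15 in untreated knockout and 10.57 in untreated wild type. All 4 values were above the filter and the genotypes did not overlap. The difference was 0.72 after ET-1 and 0.58 untreated. Averaged over treatments it was 0.65 ± 0.13 (SE), and the limma adjusted p of 0.0505 lay just above the threshold of 0.05. The test passed with array medians subtracted (adjusted p = 0.0231), after quantile normalization (0.0478) and with probe sets averaged per gene (0.0397). It did not pass with no level filter (0.0825), with no intensity trend in eBayes (0.0535), with the robust prior (0.0562) or with every probe set as a feature (0.0811).

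**Figure D2:**
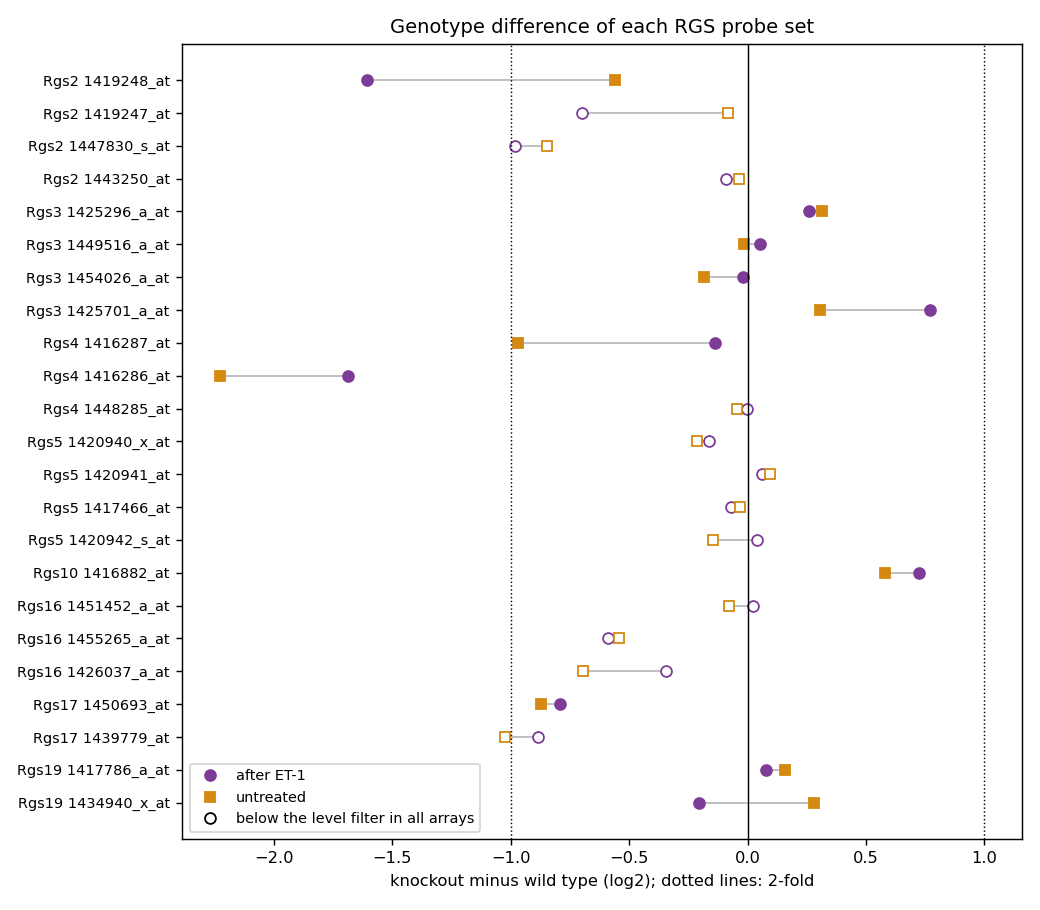
Knockout minus wild-type difference (log2, horizontal axis) of each RGS probe set after ET-1 (circles) and untreated (squares), with open symbols for probe sets below the level filter in all arrays and dotted lines at 2-fold. The Rgs4 probe set 1416286_at lies at -1.69 and -2.23, Rgs2 1419248_at at -1.61 and -0.56, both Rgs17 probe sets between -1.03 and -0.79, and Rgs10 at 0.72 and 0.58.

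**Figure D3:**
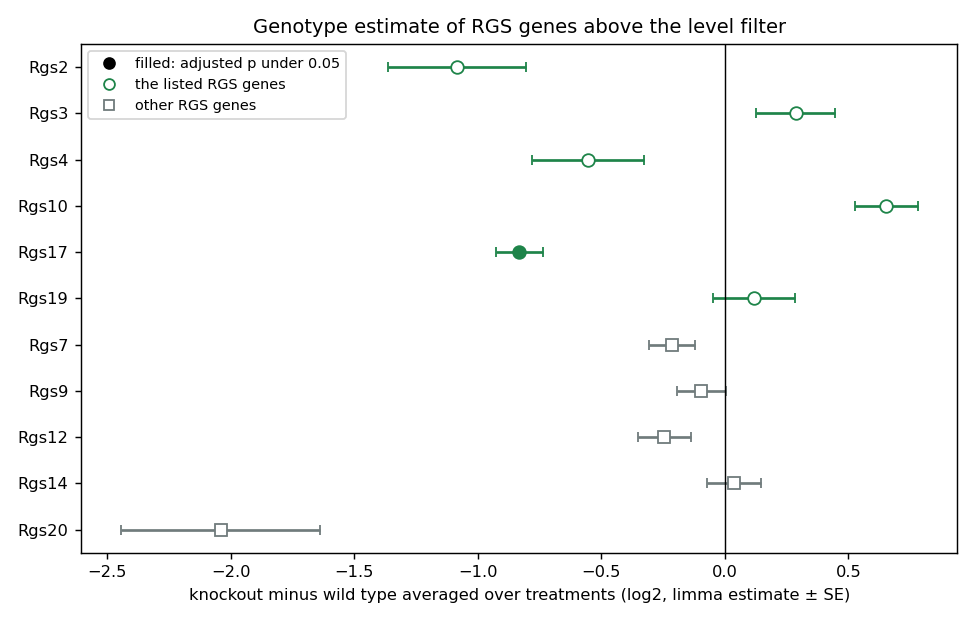
Limma estimates of knockout minus wild type averaged over treatments (log2, horizontal axis, bars show SE) for the listed RGS genes above the level filter (circles) and other RGS genes above it (squares), filled where the adjusted p is under 0.05. Rgs17 at -0.83 is the 1 filled point, Rgs20 at -2.04 and Rgs2 at -1.08 lie lower with wider bars, and Rgs10 is highest at 0.65.

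ET-1 differences of the listed RGS genes were under 2-fold in both genotypes. At 2-fold or more, 0 of the 6 genes tested differed in knockout cells, against 0.513% of all genes, and 0 of 6 in wild type, against 1.95%. Averaged over genotypes, limma called 0 of the 6 and 0.00% of all genes, with 5.23% at an unadjusted p under 0.05 and a lowest adjusted p of 0.780 over all genes. The limma estimates of the 6 genes ran from -0.24 (Rgs4) to -0.09 (Rgs19), all below 0, and Rgs17 had the lowest adjusted p, 0.780. With its probe sets averaged, Rgs19 was at 0.11. The farthest from 0 in knockout cells was Rgs2, at -0.75 (7.66 with ET-1 and 8.41 untreated). In wild type the same probe set read 9.27 with ET-1 and 8.97 untreated, a difference of 0.30, so its ET-1 differences had opposite signs. Both knockout values were under the filter, and the dimmer Rgs2 probe set 1443250_at was below 0 in both genotypes. Rgs4 differed by 0.18 in knockout and -0.65 in wild type for 1416287_at, and by -0.21 in knockout and -0.75 in wild type for 1416286_at. For Rgs17 the ET-1 difference was -0.15 in knockout and -0.23 in wild type, and for Rgs10 it was -0.05 in knockout and -0.19 in wild type. Each wild-type value uses the array that stood apart in its Gapdh ends, and the part of that in these values was not tested.

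**Figure D4:**
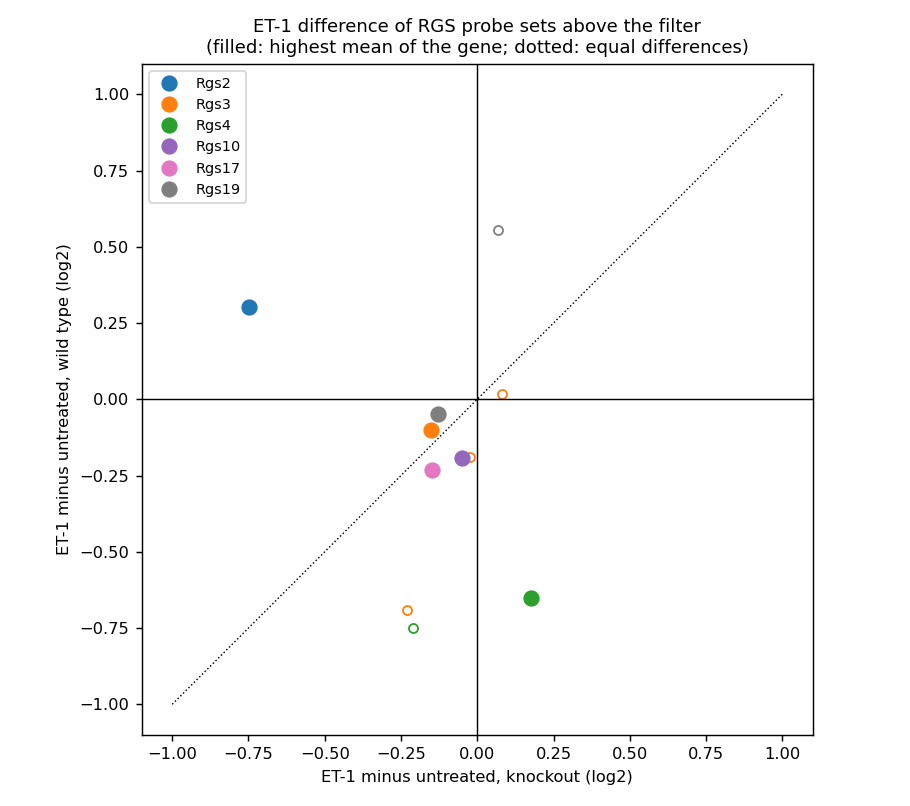
ET-1 minus untreated difference (log2) in knockout (horizontal axis) against wild type (vertical axis) for the 11 RGS probe sets above the level filter, filled for the brightest probe set of each gene. Rgs2 lies alone at the upper left (-0.75 and 0.30), the filled Rgs4 point at the lower right (0.18 and -0.65), and the other filled points within 0.25 of 0 on both axes.

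Genes with the most similar profile were sought for the 2 genes whose highest and lowest arrays were 2-fold or more apart, over the 4 arrays and by Euclidean distance after each gene's mean was removed. For Rgs17 they were Plod3 (distance 0.06), Rab39b (0.06) and Als2cl (0.07). For Rgs2 they were Snhg4 (0.16), Mir22hg (0.17) and Wnt4 (0.18). Over 4 arrays such likeness is a description only.

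Of the 13 other RGS genes, 11 had a probe set and 5 were tested. Limma called 0 of the 5, against 13.6% of all genes tested. Their median genotype difference was -0.21 after ET-1 and -0.18 untreated, against -0.03 and 0.02 over all genes tested. Rgs20, the remaining RZ gene, read 8.15 and 10.97 in ET-1-treated knockout and wild type and 8.34 and 9.60 in untreated knockout and wild type. Its difference was -2.83 after ET-1 and -1.26 untreated, and limma gave -2.04 ± 0.40 with an adjusted p of 0.0514. Both knockout values were under the filter, so these sizes are uncertain. After ET-1 it differed by -0.19 in knockout and by 1.37 in wild type, the second with the array that stood apart. The R7 genes Rgs7 and Rgs9 and the R12 genes Rgs12 and Rgs14, relatives of Rgs10, had limma estimates between -0.25 and 0.04. Among 7 tested genes with an RGS-like domain or RGS partners, 1 rose and 0 fell, against 13.6% of all genes called in either direction. The 1 that rose was Arhgef1, whose protein binds G12 and G13 alpha subunits, at 0.72 ± 0.09 (adjusted p = 0.0210). Nothing about either list as a whole is read from these counts.

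RGS proteins act on G alpha subunits. Of 9 tested G alpha genes 1 rose and 0 fell by limma, against 13.6% of all genes called in either direction, and their median difference was -0.29 after ET-1 and -0.16 untreated. Gnai1, a Gi alpha subunit and so a substrate of most RGS proteins listed, read 12.45 and 8.18 in ET-1-treated knockout and wild type and 12.20 and 8.75 in untreated knockout and wild type. It rose by 3.86 ± 0.23 (adjusted p = 0.00642), with wild-type values under the filter, so the size is uncertain. Gnai2 and Gnaq, alpha subunits of Gi and Gq, had estimates of -0.58 (adjusted p = 0.0604) and -0.60 (adjusted p = 0.103). Of 11 tested G beta and gamma genes 3 fell and 0 rose, against 7.05% of all genes that fell. Gnb4 fell by 1.80, Gng11 fell by 1.51 and Gng2 fell by 0.61, the last at a limma adjusted p of 0.0492. Both knockout values of Gng11 were under the filter, so its size is uncertain. These subunits form the dimer that receptors release from the alpha subunit.

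Of 8 tested receptor genes 2 fell and 0 rose, against 7.05% of all genes that fell. S1pr3, a sphingosine-phosphate receptor gene, fell by 4.24 ± 0.26 and F2r, which encodes a thrombin receptor, fell by 0.66 ± 0.09. S1pr3 read 7.25 and 11.98 in ET-1-treated knockout and wild type and 8.02 and 11.78 in untreated knockout and wild type. Its knockout values were under the filter, so it was tested through its wild-type arrays alone and the size is uncertain. The ET-1 receptor gene Ednrb differed by -0.03, with values of 9.29 to 9.33 over the 4 arrays. Ednra, the other ET-1 receptor gene of the list, had no probe set named for it alone and was not read. The arrestin gene Arrb2 rose by 0.98 ± 0.12 (adjusted p = 0.0179), 1 of 4 tested receptor kinase and arrestin genes. Of 5 GPSM and Ric8 genes, which act on alpha subunits outside receptors, 1 rose, against 13.6% of all genes called in either direction. The gene was Gpsm3 (0.64, with both wild-type values under the filter). Of 7 adenylyl cyclase genes 1 fell (Adcy7, -1.51, with both knockout values under the filter). With lists this short, nothing is read from these counts about a list as a whole.

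**Figure D5:**
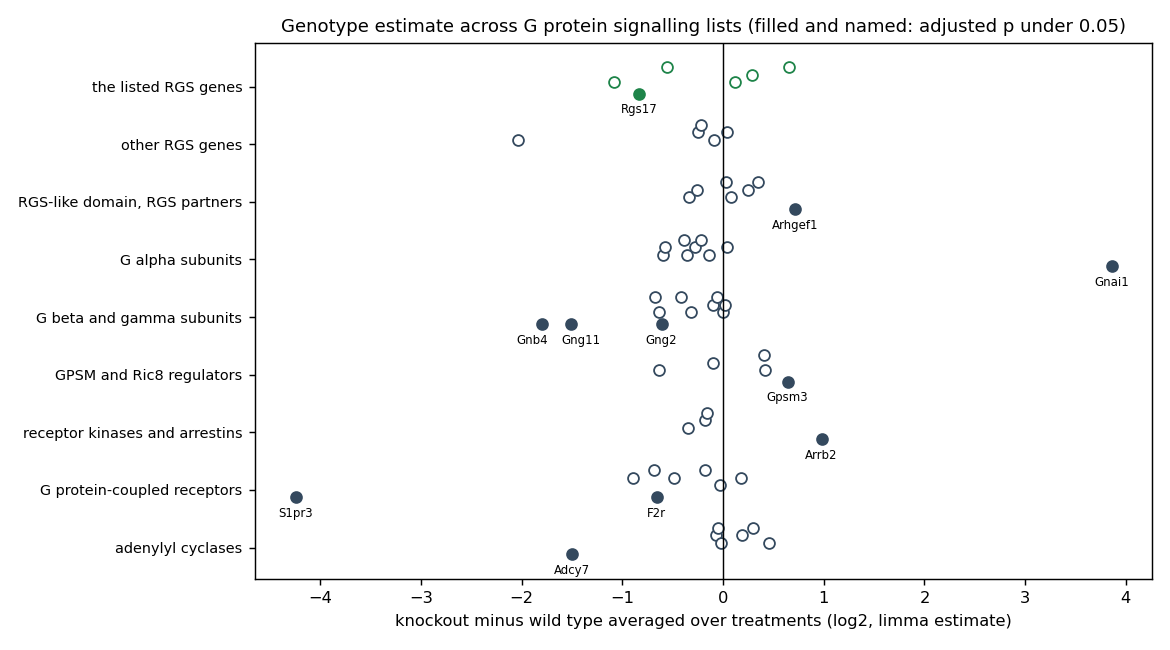
Limma estimates of knockout minus wild type averaged over treatments (log2, horizontal axis) for tested genes of each G protein signalling list (1 row per list), filled and named where the adjusted p is under 0.05. Gnai1 (3.86) and S1pr3 (-4.24) lie far outside the range of the listed RGS genes, which runs from -1.08 to 0.65.

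Markers of other cell types were read on the same arrays. By limma, 13.6% of all genes were called in either direction and 7.05% fell, beside which the marker counts stand. All 4 mesothelial markers were 2-fold or more higher in untreated knockout, against 9.37% of all genes at 2-fold in either direction. After ET-1, 3 of the 4 reached 2-fold, against 12.1%, and by limma 3 rose and 0 fell. The list's summed level (log2) was 15.69 and 12.37 in ET-1-treated knockout and wild type and 15.84 and 13.50 in untreated knockout and wild type. Of 9 tested fibroblast markers 7 fell and 1 rose by limma, with a summed level of 16.44 and 17.32 in ET-1-treated knockout and wild type and 16.62 and 17.20 in untreated knockout and wild type. Vim, Col1a1 and Col1a2 were above the level filter in all arrays, Thy1 in all but the ET-1-treated knockout, and Fap in none. Of 5 tested epithelial markers 2 rose and 0 fell. These were Krt18 (4.32 ± 0.66, adjusted p = 0.0300) and Krt8 (1.11 ± 0.17, adjusted p = 0.0282), and Cdh1 was below the filter in all arrays. Krt18 differed by 5.62 after ET-1 and by 3.02 untreated, and its ET-1-treated wild-type value of 7.48 was under the filter. The other tested epithelial markers, Epcam, Krt5 and Cldn4, had estimates of -0.33, -0.11 and -0.06. The summed epithelial level was 13.87 and 12.72 in ET-1-treated knockout and wild type and 14.26 and 12.98 in untreated knockout and wild type. The part of these differences in the RGS values was not tested. Of 8 mural cell markers 5 were above the filter in every array, while Kcnj8, Higd1b and Myh11 were below it in all. By limma 1 of the 5 tested mural markers fell, Notch3, by 0.66 ± 0.12 (adjusted p = 0.0477), and 0 rose. The blood cell markers Ptprc, Cd68, Itgam and Cd79a were below the filter in all arrays, as were Pecam1 and Cdh5 of endothelium and Snap25 and Stmn2 of neurons. Adgre1 and Cd3e of blood cells, Kdr of endothelium and Syt1 of neurons passed the filter. Csf1r, a receptor known from macrophages, rose by 1.09 ± 0.12 (adjusted p = 0.0146).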

How the data were processed

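Total RNA (100 ng per sample) was amplified and labelled in a pair of cycles, per the labels' protocols. The authors deposited a table of log2 values, which the submitters' processing notes credit to RMA (version not stated there), a method that corrects background, equalises the arrays and combines the probes of a set. The deposited values span 5.00 to 15.24. This low end is high for RMA. If a constant was added before the log was taken, dim genes differ by more than printed, which was not tested. Array medians were 8.89 to 8.92. Precision is limited by having 4 arrays.

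Probe sets were named through the platform annotation. Of 45101 probe sets, 34958 had 1 gene, 932 several and 9211 none. All 8 RGS symbols matched RefSeq (GRCm38.p6) by Entrez identifier. Differences between arrays have no replicate check. Genotype and treatment were fitted together to 12290 genes in R 4.3.3 by limma 3.58.1 with trended eBayes, with Benjamini-Hochberg adjustment at 0.05. It has 1 residual degree of freedom and a prior of 2.996. The fit was tested on simulated data with planted genotype changes larger than the Rgs17 difference. Those data held no planted genotype by treatment term, so the adjusted p of smaller differences was not checked by them. Python 3.11.15, numpy 2.4.6, pandas 2.3.3 and matplotlib 3.10.9 did the rest. Alternatives were the probe set summary, the scaling, the filter, the fold and the eBayes prior.

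The RGS genes and the lists were chosen with earlier results of these data known. Named genes of the signalling lists are all that passed limma and up to 4 tested with the largest untreated genotype difference in size. Others were singled out by role, chosen after their values were seen. Cell type markers are named in part, and not all that passed limma are among them.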

Additional observations from a re-analysis of the deposited data

Results flagged for a closer look

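The ET-1 difference of 2 of the 6 tested RGS genes had opposite signs in the genotypes, with 1 array per group and no test of the difference. The share of all genes with opposite signs was not counted, so nothing is read from this count. Each wild-type difference below uses the array that stood apart in its Gapdh ends. For Rgs2 it was -0.75 (log2) in knockout and 0.30 in wild type by its brightest probe set, with both knockout values under the filter. The dimmer Rgs2 probe sets, under the filter throughout, gave -0.42 and 0.20 (1419247_at), -0.09 and 0.05 (1447830_s_at) and -0.10 and -0.05 (1443250_at). For Rgs4 the ET-1 difference was 0.18 in knockout and -0.65 in wild type by its brightest probe set, while 1416286_at gave -0.21 and -0.75.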

How the results depend on the processing

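No paired analysis was possible because each group holds 1 array, and leaving out an array leaves no residual degree of freedom. Rgs17 fell in every fit run: with each scaling, with no filter, with the mean of its probe sets, under both other eBayes priors and with every probe set as a feature. The number of RGS genes called for genotype was 1, against 3 with array medians subtracted (Rgs2, Rgs10 and Rgs17), 2 after quantile normalization and 2 with probe sets averaged per gene (Rgs10 and Rgs17). Calls over all genes also rose, from 1677 of 12290 to 2322 of 12286, 2086 of 12284 and 1888 of 10828, in that order. With every probe set as a feature, an alternative chosen after seeing the data, 2 RGS probe sets were called. Over all 20939 probe sets, 1769 were called. After ET-1, 1 RGS gene differed by 2-fold between genotypes, against 0 with probe sets averaged, where Rgs2 and Rgs4 drop below the filter and are not tested, and 3 at 1.5-fold. At 1.5-fold, 2 RGS genes differed between genotypes in untreated cells, 1 after ET-1 in knockout and 1 after ET-1 in wild type, against 0 at 2-fold in each. Over all genes, 1.5-fold gave 3101 genes for genotype after ET-1, 2453 for genotype in untreated cells, 286 for ET-1 in knockout and 1319 for ET-1 in wild type, and averaged probe sets gave 40 for ET-1 in knockout and 145 in wild type, against 63 and 240. No called value reversed. Of 156 single-gene values, 149 kept their sign and their side of the threshold, 4 passed it in addition and 3, all of Rgs19 with the mean of its probe sets, changed sign without being called. Values under the filter lie below the median of all values. Whether they stand above background was not tested, so differences there are uncertain.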
